A study of Mus musculus with 3 samples.

Results

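The ligands, receptors and latent-binding proteins of transforming growth factor beta (TGF-beta) were followed through the cells of the mouse patellar tendon as 10 genes: the ligands Tgfb1, Tgfb2 and Tgfb3, the receptors Tgfbr1, Tgfbr2 and Tgfbr3, and the latent TGF-beta binding proteins Ltbp1, Ltbp2, Ltbp3 and Ltbp4. They were chosen by symbol, and each matched 1 row in all 3 count matrices, so the set is 10 of 32288 features. The cells came from the patellar tendons of wild-type mice at 20 weeks of age (2 libraries, replicates 1 and 2) and at 2 weeks of age (1 library). Tendons were digested with collagenase, cells of the blood lineage and endothelial cells were left out by flow sorting, and single cells were read with the 10x Chromium 3' chemistry. How many animals went into a library is not given, and neither a treatment nor a genotype besides wild type is named.

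TGF-beta ligands are secreted bound to their own propeptide and stay inactive in that latent complex. Ltbp1, Ltbp3 and Ltbp4 link the complex to fibrillin microfibrils in the matrix, from which pulling integrins or proteases release the ligand; Ltbp2 is a matrix protein of the same family that does not bind the latent ligand. Free ligand binds the kinase receptor Tgfbr2, which recruits and switches on Tgfbr1, and this passes the signal to Smad2 and Smad3; Tgfbr3, or betaglycan, is a co-receptor without a kinase domain that presents ligand and is needed most for the Tgfb2 ligand. In mouse tendon the pathway is known for its part in forming the tissue and in keeping expression of Scx, the transcription factor of tendon cells.

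After filters and doublet removal, 606 and 1006 cells were used from 20-week replicates 1 and 2, and 4739 cells from the 2-week library. Their summed unique molecular identifiers (UMIs, the count of captured transcripts) were 1786998 and 5436113 at 20 weeks and 32539034 at 2 weeks, so a gene of the same relative level gave far more UMIs at 2 weeks. Median UMIs per cell were 2822 and 5142.5 at 20 weeks and 6501 at 2 weeks. The 2-week library shared 2 cell barcodes with replicate 1 and 3 with replicate 2, and the 20-week libraries shared 0.

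Cells were clustered without the 10 genes and without 51 other genes of the pathway, and clusters were named from marker genes. Tenocyte-like cells, named by markers such as Tnmd, Scx and Fmod, numbered 243 and 124 at 20 weeks and 671 at 2 weeks. Their 7 markers summed to 18665 and 16675 CPM at 20 weeks and 17676 CPM at 2 weeks, where CPM is a gene's UMIs over all UMIs of the summed cells, scaled to the usual per-million unit. Progenitor-like cells, named by markers such as Cd55, Cd248 and Pi16 of the connective tissue around the tendon fibres, numbered 129 and 222 at 20 weeks and 788 at 2 weeks. Mural-like cells, named by smooth muscle and pericyte markers such as Rgs5, Acta2 and Myh11, numbered 43 and 32 at 20 weeks and 661 at 2 weeks. Different clusters filled each of these classes at the 2 ages: cluster 6 held 230 and 78 tenocyte-like cells at 20 weeks but 12 at 2 weeks, where cluster 2 held 454, and cluster 4 held 125 and 218 progenitor-like cells at 20 weeks but 6 at 2 weeks, where cluster 1 held 592. Of the mural-like cells, cluster 25 held 1 and 25 cells in replicates 1 and 2 and 15 at 2 weeks, cluster 11 held 25 and 6 and then 193, and cluster 5 held 11 and 1 and then 336. Cluster 13, led by Fabp4, Nrgn and Casq2, stayed unnamed, with 9 and 3 cells at 20 weeks and 188 at 2 weeks. With stricter cell filters, a cluster led by Fabp4 and Nrgn had the mural marker Rgs5 among its top genes. Whether cluster 13 is mural was not tested, and the mural-like values leave it out. Cluster 6 was led by Chad, Mt4 and Lgals7, with Fmod, Scx and Comp also among its top genes but not Tnmd, which was among those of cluster 9. The sort did not remove all blood cells: 66 B-lineage-like cells stood in replicate 2, with 0 in replicate 1 and 0 at 2 weeks.

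The 10 genes lie on 8 chromosomes of the mouse build GRCm38, with 2 pairs sharing one. The ligand genes are Tgfb1 at chr7:25687002-25705077 on the plus strand, Tgfb2 at chr1:186622792-186705989 on the minus strand and Tgfb3 at chr12:86056745-86079041 on the minus strand. The receptor genes are Tgfbr1 at chr4:47353222-47414931 on the plus strand, Tgfbr2 at chr9:116084293-116175360 on the minus strand and Tgfbr3 at chr5:107106570-107289629 on the minus strand. The latent-binding genes are Ltbp1 at chr17:75005568-75392512 and Ltbp3 at chr19:5740904-5758532 on the plus strand, and Ltbp2 at chr12:84783212-84876532 and Ltbp4 at chr7:27305136-27337692 on the minus strand. The strand setting of the counting is not given in the sources used here, so a member whose 3' end overlaps a gene on the opposite strand may share reads with it. The 3' end of Tgfb3 overlaps Ttll5 in this way, and that of Ltbp3 overlaps a protein-coding gene.

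Among the ligands, each of the 3 main classes had its own balance. Tgfb3 led the ligands of tenocyte-like cells in replicate 2 and in the 2-week library, and stood at 113 CPM (83 UMIs) and 156 CPM (75 UMIs) in 20-week replicates 1 and 2 and 116 CPM (682 UMIs) in the 2-week library. In progenitor-like cells Tgfb3 stood at 21.5 and 45.2 CPM at 20 weeks and 41.8 CPM at 2 weeks, below tenocyte-like cells in every library. Mural-like cells gave 64.1 and 31.9 CPM of Tgfb3 at 20 weeks, from only 6 and 2 UMIs, and 122 CPM at 2 weeks from 565 UMIs. The 2-week order was osteogenic-like cells at 133 CPM, mural-like at 122 CPM and tenocyte-like at 116 CPM, whose counting intervals overlapped from one to the next.

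Tgfb2 led the ligands of progenitor-like cells in all 3 libraries, at 132 and 294 CPM in 20-week replicates 1 and 2 and 122 CPM at 2 weeks. Tenocyte-like cells had 75.0 and 87.2 CPM of Tgfb2 at 20 weeks and 64.9 CPM at 2 weeks. Progenitor-like cells were above tenocyte-like cells in every library for this gene, and the 2 classes came closest in replicate 1. At 2 weeks Tgfb2 fell off in small steps over the classes: myogenic-like, progenitor-like, mural-like, synovial lining-like, chondrocyte-like, osteogenic-like and tenocyte-like cells followed each other at 135, 122, 108, 106, 79.9, 78.7 and 64.9 CPM, each overlapping its neighbour within counting error. The progenitor-like interval, 113 to 131 CPM, lay clear of the tenocyte-like one, 58.5 to 71.7 CPM. These orders leave out unnamed cells, which were 30.4% and 44.1% of cells at 20 weeks and 43.3% at 2 weeks. Of all clusters the unnamed cluster 0 had the most Tgfb2 in every library. It stood at 256 and 302 CPM at 20 weeks and 156 CPM at 2 weeks, each overlapping the next cluster within counting error.

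Tgfb1, the ligand that immune cells are known to make in amount, was uneven between the 20-week libraries. Tenocyte-like cells had 143 CPM (105 UMIs) in replicate 1, 39.4 CPM (19 UMIs) in replicate 2 and 20.3 CPM (119 UMIs) in the 2-week library, so the 20-week libraries differed more from each other than replicate 2 did from 2 weeks. Progenitor-like cells had 21.5, 35.2 and 8.93 CPM in that order. The highest Tgfb1 level of any class was in the B-lineage-like cells of replicate 2, at 264 CPM (95% counting interval 215 to 321), and those cells gave 29.6% of that library's Tgfb1 UMIs. At 2 weeks osteogenic-like cells led with 77.6 CPM of Tgfb1.

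**Figure D1:**
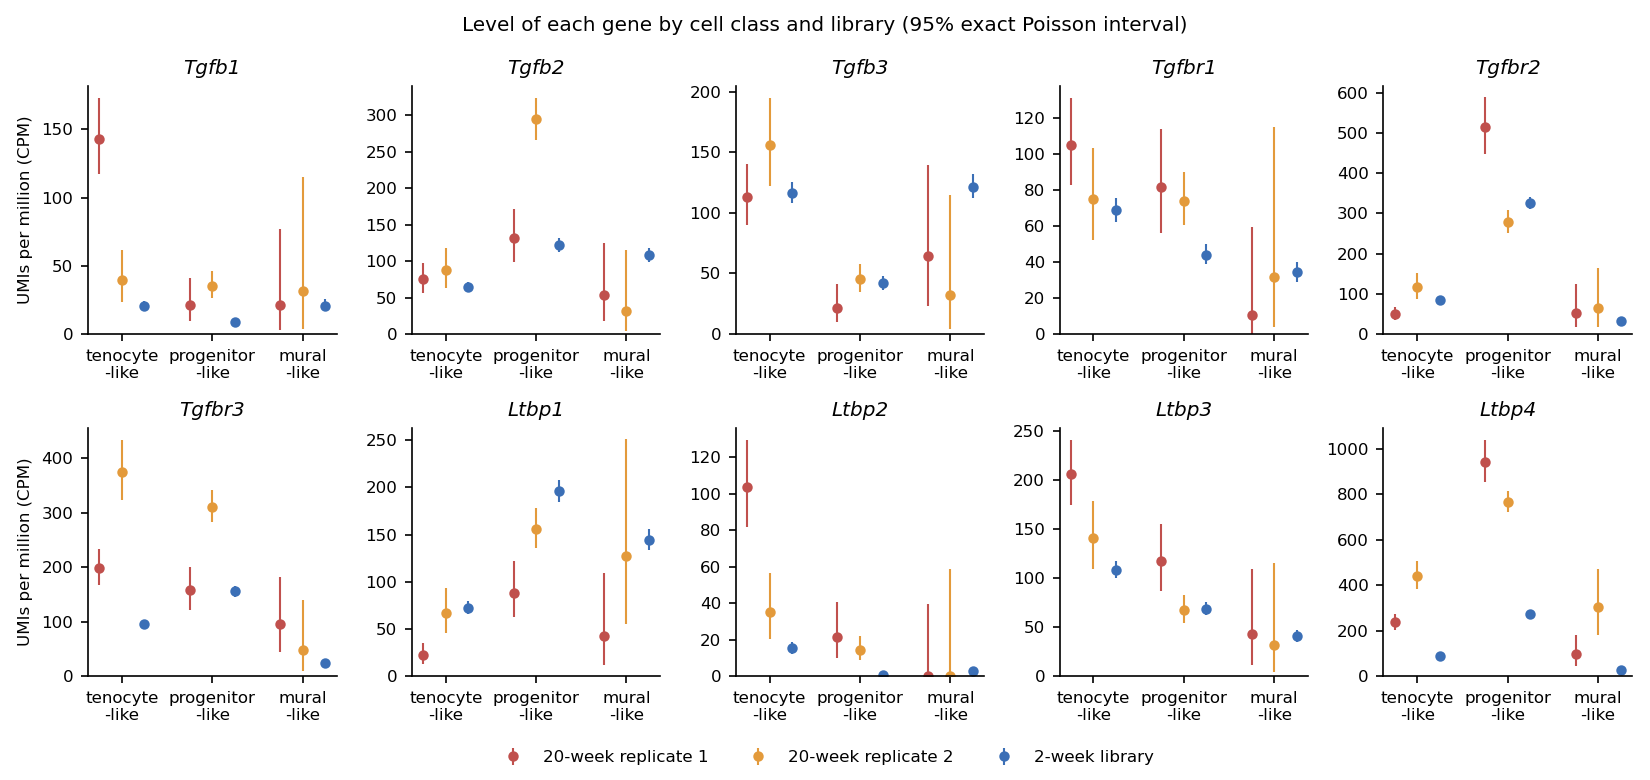
Level of each of the 10 genes in CPM (linear axis from 0) by cell class and library, with exact 95% Poisson counting intervals as bars, 20-week libraries left of the 2-week library. Tgfb3 stood at 113, 156 and 116 CPM in tenocyte-like cells and Ltbp4 at 943, 767 and 274 CPM in progenitor-like cells, and mural-like values at 20 weeks rest on few UMIs and have wide bars.

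The receptors divided the classes along Tgfbr2, the receptor that binds the ligand first. Progenitor-like cells had 515 and 279 CPM of Tgfbr2 at 20 weeks and 325 CPM at 2 weeks. Tenocyte-like cells had 49.1 and 116 CPM at 20 weeks and 84.2 CPM at 2 weeks, and mural-like cells 53.4 and 63.7 CPM at 20 weeks (5 and 4 UMIs) and 33.4 CPM at 2 weeks. In all 3 libraries the progenitor-like level lay above the interval of the class next in order. Within the progenitor-like cells of the 2-week library, cluster 15 stood at 383 CPM and cluster 1 at 304 CPM.

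For Tgfbr1, the signalling kinase, tenocyte-like cells had 105 and 74.7 CPM at 20 weeks and 68.6 CPM at 2 weeks, and progenitor-like cells 81.4 and 74.0 CPM at 20 weeks and 43.9 CPM at 2 weeks. Mural-like cells had 10.7 and 31.9 CPM of Tgfbr1 at 20 weeks, from 1 and 2 UMIs, and 34.3 CPM at 2 weeks. The co-receptor Tgfbr3 was carried by both tenocyte-like cells, with 199 and 376 CPM at 20 weeks and 94.9 CPM at 2 weeks, and progenitor-like cells, with 158 and 311 CPM at 20 weeks and 156 CPM at 2 weeks. Mural-like cells had 96.2 and 47.8 CPM of Tgfbr3 at 20 weeks (9 and 3 UMIs) and 24.8 CPM at 2 weeks. Myogenic-like cells, with 33 cells in replicate 2 and 95 at 2 weeks, had 257 and 38.9 CPM of it.

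Of the latent-binding proteins, Ltbp4 reached the highest levels. Progenitor-like cells had 943 and 767 CPM of Ltbp4 at 20 weeks and 274 CPM at 2 weeks. Tenocyte-like cells had 237 and 442 CPM at 20 weeks and 87.4 CPM at 2 weeks. Mural-like cells had 96.2 and 303 CPM at 20 weeks, from 9 and 19 UMIs, and 27.4 CPM at 2 weeks. By these values the order progenitor-like, tenocyte-like, mural-like was the same in all 3 libraries. In replicate 2, though, counting intervals overlapped from tenocyte-like to myogenic-like and from myogenic-like to mural-like cells. Cluster 7, an unnamed cluster led by Hmcn2 and Fmo2, was higher still, at 1428 CPM in replicate 1 and 1675 CPM in replicate 2, and at 2 weeks the unnamed cluster 14 led with 793 CPM. B-lineage-like cells gave 2 UMIs of Ltbp4, or 5.24 CPM.

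Ltbp1 was lowest in tenocyte-like cells among the 3 main classes in every library. Those cells had 21.8 and 66.4 CPM at 20 weeks and 72 CPM at 2 weeks, progenitor-like cells 88.6 and 156 CPM at 20 weeks and 196 CPM at 2 weeks, and mural-like cells 42.7 and 127 CPM at 20 weeks and 144 CPM at 2 weeks. The mural-like level at 2 weeks was a mixture: Ltbp1 stood at 194 CPM in cluster 5 and 141 CPM in cluster 18 but at 3.22 CPM in cluster 11. Ltbp3, which binds latent ligand in bone and cartilage among other tissues, showed another order, with tenocyte-like cells at 206 and 141 CPM at 20 weeks and 109 CPM at 2 weeks, progenitor-like cells at 117 and 67.5 CPM at 20 weeks and 68.6 CPM at 2 weeks, and mural-like cells at 42.7 and 31.9 CPM at 20 weeks (4 and 2 UMIs) and 40.7 CPM at 2 weeks. Chondrocyte-like cells, present at 2 weeks, had 112 CPM of Ltbp3 and 5.80 CPM of Ltbp1.

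Ltbp2 gave the fewest UMIs of the 10 in replicate 2 and in the 2-week library. Tenocyte-like cells had 104 CPM (76 UMIs) in replicate 1, 35.3 CPM (17 UMIs) in replicate 2 and 15.2 CPM (89 UMIs) at 2 weeks, and progenitor-like cells 21.5 CPM (9 UMIs), 14.4 CPM (20 UMIs) and 0.525 CPM (3 UMIs). Mural-like cells had 0 UMIs in both 20-week libraries and 12 at 2 weeks. Within the 2-week tenocyte-like cells, 68 of the 89 UMIs came from cluster 9, at 51.8 CPM, and 21 from cluster 2, at 4.66 CPM. Tgfb1 followed the same split of those cells, with 49.5 CPM in cluster 9 and 12 CPM in cluster 2, and so did Tgfb3, with 183 CPM in cluster 9 and 97.5 CPM in cluster 2. Synovial lining-like cells had 36.0 CPM of Ltbp2 at 2 weeks and osteogenic-like cells 21.6 CPM.

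**Figure D2:**
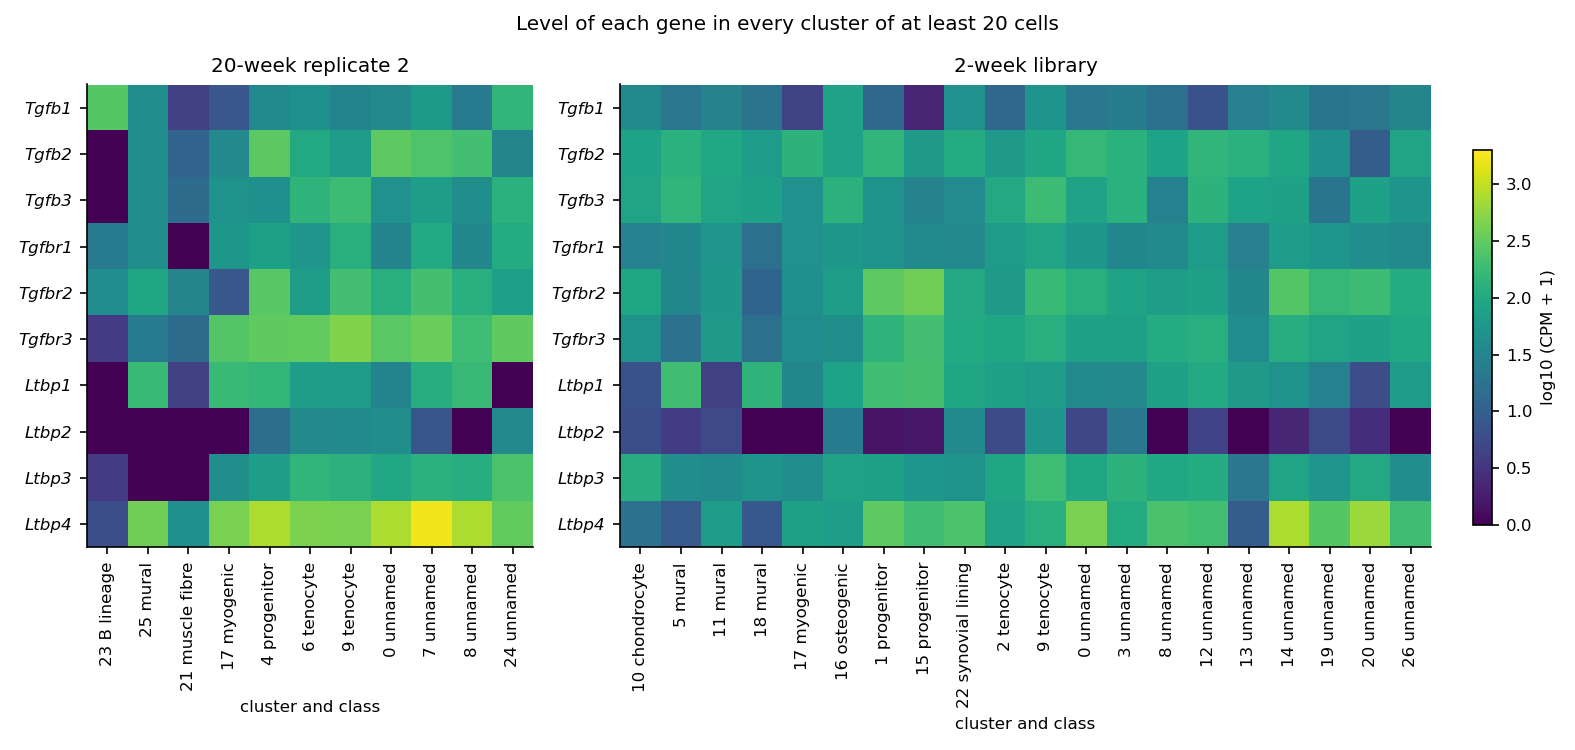
Level in CPM (colour, as log10 of CPM plus 1) of the 10 genes in each cluster with at least 20 cells, in 20-week replicate 2 and in the 2-week library. Tgfbr2 was highest in cluster 4 of replicate 2 and in clusters 15 and 1 at 2 weeks, Ltbp4 in cluster 7 of replicate 2 and in cluster 14 at 2 weeks, and Ltbp1 was 194 CPM in mural-like cluster 5 against 3.22 CPM in mural-like cluster 11 of the 2-week library.

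Set against each other within a class, the ligands gave a share of the 3-ligand total that depth does not enter. Tgfb2 made 75.3% and 78.5% of ligand UMIs in progenitor-like cells at 20 weeks and 70.6% at 2 weeks, so its lead there was common to all 3 libraries. In tenocyte-like cells Tgfb3 made 34.2% and 55.1% at 20 weeks and 57.7% at 2 weeks, while Tgfb1 made 43.2% in replicate 1, 14.0% in replicate 2 and 10.1% at 2 weeks. Replicate 1 was thus the library in which Tgfb1, not Tgfb3, led the tenocyte-like ligands. Mural-like cells at 2 weeks divided between Tgfb3 with 48.6% and Tgfb2 with 43.1%. Each transcript is counted once from its 3' end in this assay, so length does not enter these shares, but genes may be captured unequally.

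Among receptors, Tgfbr2 made 68.3% and 42.1% of receptor UMIs in progenitor-like cells at 20 weeks and 61.9% at 2 weeks. Tgfbr3 made 56.4% and 66.3% of those in tenocyte-like cells at 20 weeks and 38.3% at 2 weeks. Of the latent-binding UMIs, Ltbp4 made 80.6% and 76.3% in progenitor-like cells at 20 weeks and 50.8% at 2 weeks, where Ltbp1 took 36.4%. Tenocyte-like cells gave Ltbp4 a share of 41.7% and 64.5% at 20 weeks and 30.9% at 2 weeks, and gave Ltbp1 3.8% and 9.7% at 20 weeks and 25.4% at 2 weeks. Both classes thus had a larger Ltbp4 share and a smaller Ltbp1 share in both 20-week libraries than in the 2-week library, a description on 2 libraries against 1.

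**Figure D3:**
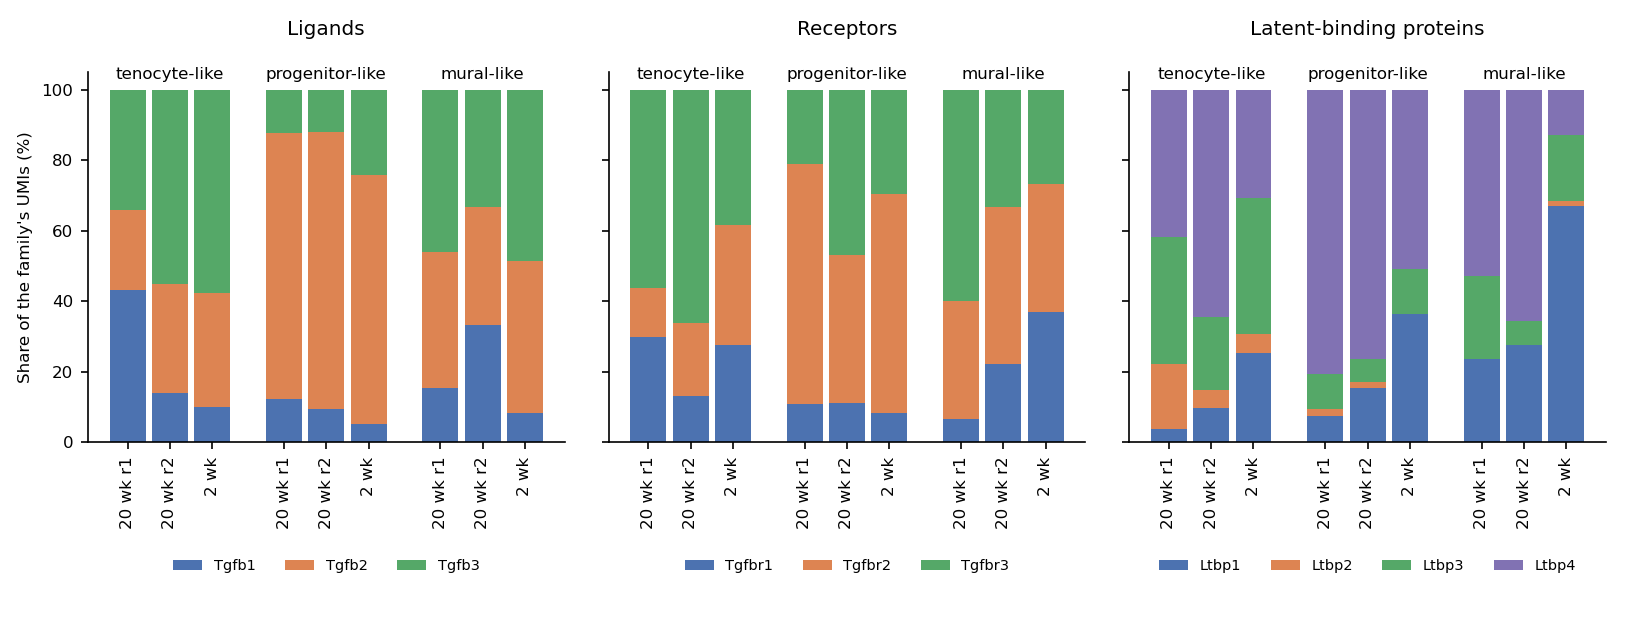
Share of ligand, receptor and latent-binding UMIs (percent) taken by each gene, by cell class and library, with 20-week libraries left of the 2-week library. Tgfb2 held 75.3%, 78.5% and 70.6% of the ligand UMIs in progenitor-like cells, and Ltbp4 held 80.6%, 76.3% and 50.8% of the latent-binding UMIs there.

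Classes were compared with UMIs summed per library and class and library as a block, with edgeR's quasi-likelihood test and Benjamini-Hochberg adjustment over the 8003 genes that passed the filter on low counts. All 10 members passed it. Between tenocyte-like and progenitor-like cells, 6 of the 10 members passed an adjusted p of 0.05, against 11.2% of all genes. Tgfb3, Ltbp2 and Ltbp3 were higher in tenocyte-like cells (background 5.07%), and Tgfbr2, Ltbp1 and Ltbp4 were lower (background 6.14%). Tgfb3 was higher by 2.04 on the log2 scale (SE 0.37, adjusted p = 0.00459), and the call held when any of the 3 libraries was left out. Ltbp2 was higher by 2.73 (SE 0.61, adjusted p = 0.0144) and Ltbp3 by 1.07 (SE 0.25, adjusted p = 0.0201). Tgfbr2 was lower by a log2 difference of -1.92 (SE 0.38, adjusted p = 0.0075), Ltbp1 by one of -1.30 (SE 0.26, adjusted p = 0.00868) and Ltbp4 by one of -1.29 (SE 0.36, adjusted p = 0.043). In every library the tenocyte-like level of each of these genes lay on the side given. Without replicate 1 the edgeR calls of Tgfbr2, Ltbp1, Ltbp3 and Ltbp4 ended (adjusted p = 0.0716, 0.145, 0.159 and 0.361), without replicate 2 that of Ltbp3 (0.0601) and without the 2-week library those of Ltbp3 (0.103) and Ltbp4 (0.213). Tgfb1 differed by 1.56 (SE 0.49) and did not pass, with an edgeR adjusted p of 0.073, but reached 0.00176 without replicate 2 and 0.000559 without the filter on low counts, where Tgfb2 passed as well (0.0389). With no library block the edgeR calls of Ltbp1, Ltbp2, Ltbp3 and Ltbp4 ended (0.261, 0.203, 0.195 and 0.525), and with the sums thinned to the size of the smallest, where 4 members passed the filter, those of Ltbp3 (0.0543) and Ltbp4 (0.162).

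Mural-like cells had less of the co-receptor Tgfbr3, the kinase Tgfbr1 and 3 latent-binding proteins than tenocyte-like cells. Of the 10 members, 5 passed, all lower in mural-like cells, against 8.95% of all genes lower and 15.9% called in either direction. Ltbp3 was lower by a log2 difference of -2.03 (SE 0.31, edgeR adjusted p = 0.00127), a call that held without any 1 library. The others were Tgfbr3 with -2.28 (SE 0.42, adjusted p = 0.004), Tgfbr1 with -1.52 (SE 0.39, adjusted p = 0.0229), Ltbp4 with -1.53 (SE 0.39, adjusted p = 0.022) and Ltbp2 with a fitted -2.92 (adjusted p = 0.0244), for which mural-like cells gave 0 UMIs in each 20-week library and 12 in the 2-week one. Without replicate 1 the edgeR calls of Tgfbr1, Ltbp2 and Ltbp4 ended (adjusted p = 0.109, 0.0728 and 0.0911), and without the 2-week library those of Tgfbr3 (0.0503) and Ltbp4 (0.261). With no library block the edgeR calls of Ltbp2 (0.0702) and Ltbp4 (0.357) ended, and with thinned sums that of Ltbp4 (0.169), with 4 members past the filter. Ltbp1 had a fitted difference of 0.66 (SE 0.30) and did not pass (edgeR adjusted p = 0.173). In the 2-week library alone the mural-like level was above the tenocyte-like level, with counting intervals apart, for Ltbp1 and Tgfb2. Without the filter on low counts Tgfbr2 passed too (0.0363).

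Against progenitor-like cells, 3 of the 10 members passed, again all lower in mural-like cells, against 9.88% of all genes lower and 17.7% called in either direction. Tgfbr2 had the largest log2 difference among the members of these class comparisons, -3.17 (SE 0.45, edgeR adjusted p = 0.000642), and its call held without any 1 library. Ltbp4 was lower by a difference of -2.82 (SE 0.40, adjusted p = 0.00066, and 0.0508 with no library block) and Tgfbr3 by one of -2.13 (SE 0.42, adjusted p = 0.00469, and 0.102 without the 2-week library). Without the 2-week library Tgfb2 passed too (adjusted p = 0.0303), and without replicate 2 so did Tgfb3, on the higher side in mural-like cells (0.00564). Both passed without the filter on low counts (0.0213 and 0.0499), and Ltbp3 passed with RLE size factors (0.0432). Mural-like sums at 20 weeks held 43 and 32 cells, so the fitted differences lean on the 2-week library.

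**Figure D4:**
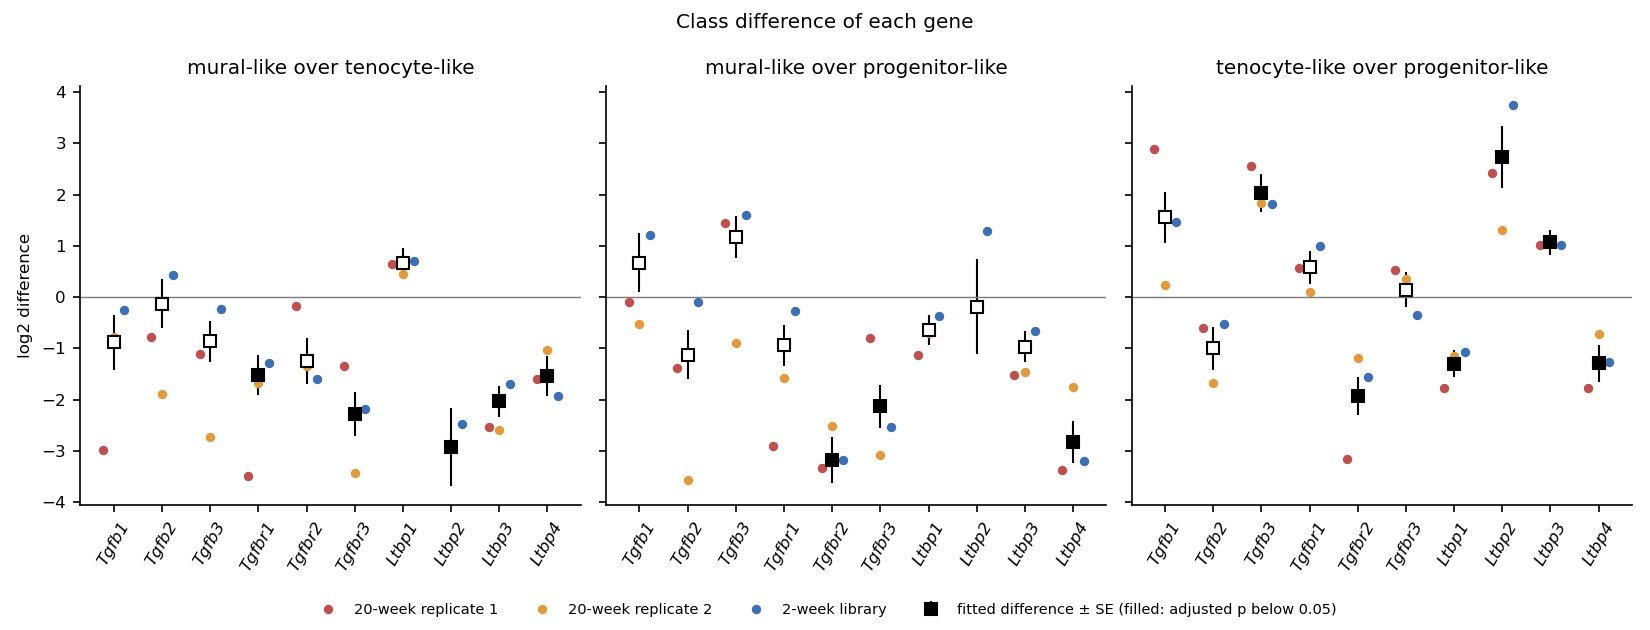
Log2 differences between classes for the 10 genes (squares for the fitted value, filled where the adjusted p was below 0.05, with bars of 1 SE, and small points for single libraries; a library in which either class had 0 UMIs has no point). Tgfbr2 lay at -3.17 for mural-like against progenitor-like and -1.92 for tenocyte-like against progenitor-like, and Tgfb3 at 2.04 for tenocyte-like against progenitor-like.

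Age was compared as 20 weeks over 2 weeks on the same kind of sums, with 2 libraries against 1. This leaves 1 degree of freedom among libraries, and the lone 2-week library is taken to vary like the 20-week pair. Within classes and single clusters, edgeR took each gene's spread from a trend over all genes, not from that gene's own libraries. These p-values therefore do not measure how far the 2 replicates of a single gene lay apart, nor the spread between animals. In tenocyte-like cells all 10 members were tested and 2 passed, both higher at 20 weeks, against 2.82% of 8008 genes higher and 5.27% called in either direction. Tgfb1, whose values are given above, was higher by 2.08 (SE 0.69, edgeR adjusted p = 0.0472), made of 2.74 in replicate 1 and 0.56 in replicate 2. Ltbp2 was higher by 2.09 (SE 0.65, adjusted p = 0.028), made of 2.68 in replicate 1 and 0.80 in replicate 2. Both calls rest on replicate 1: without it the values, with no test, were 0.56 for Tgfb1 and 0.80 for Ltbp2. Cluster 24 of replicate 2, at 147 CPM of Tgfb1, lay outside the class as named, and its part was not tested. Both also ended with DESeq2 (adjusted p = 0.563 and 0.566), without the filter on low counts (0.0792 and 0.0678) and with the sums thinned to the size of the smallest (0.297 and 0.217), and that of Tgfb1 with stricter cell filters (0.0531) and with the members kept for clustering (0.0927).

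The split within tenocyte-like cells stood beside these values. Cluster 6, where most 20-week tenocyte-like cells lay, had 147 and 44.6 CPM of Tgfb1 and 107 and 35.0 CPM of Ltbp2 in replicates 1 and 2. Cluster 9, which held 45 cells of replicate 2 and 205 of the 2-week library, had 30.2 CPM of Tgfb1 in replicate 2 (5 UMIs) and 49.5 CPM at 2 weeks, and 36.2 CPM of Ltbp2 in replicate 2 (6 UMIs) and 51.8 CPM at 2 weeks. The counting intervals overlapped for both genes (9.80 to 70.4 CPM in replicate 2 and 38.2 to 63.1 CPM at 2 weeks for Tgfb1, 13.3 to 78.8 CPM and 40.2 to 65.6 CPM for Ltbp2). Cluster 9 held only 6 cells of replicate 1, the library on which both calls rest. With so few cells and UMIs, these values cannot show whether either gene differed by age within that cluster. Markers of synovial lining cells moved with age in the same class: the 3 of them (Prg4, Clic5 and Tspan15, all detected) summed to 9154 and 6506 CPM at 20 weeks and 591 CPM at 2 weeks. Osteogenic markers summed to 871 and 122 CPM at 20 weeks and 5.97 CPM at 2 weeks, again highest in replicate 1. Of the 8 on that list, 4 and 3 were detected at 20 weeks and 4 at 2 weeks. Bglap, Dmp1 and Sp7 gave 0 UMIs in every library, so these sums rest on part of the list. Progenitor markers, all 7 detected, summed to 1059 and 714 CPM at 20 weeks and 163 CPM at 2 weeks in these tenocyte-like cells, beside the age values of Ltbp4 as well. Their part in the result was not tested.

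The other members of tenocyte-like cells did not pass, and the median log2 difference was 0.38 over the 10 members and 0.06 over all genes tested. Ltbp4 had the largest difference of these, 1.71 (SE 0.82, edgeR adjusted p = 0.319), with 1.41 in replicate 1 and 1.95 in replicate 2. Tgfbr3 differed by 1.35 (SE 0.79, adjusted p = 0.512) and lay on the same side in both replicates. Ltbp1 had -1.71 in replicate 1 and -0.49 in replicate 2 and did not pass either (edgeR adjusted p = 0.52). Tgfb3 differed by -0.01 with an SE of 0.67, so a difference of that SE in either direction cannot be told from none here.

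In progenitor-like cells 1 of the 10 members passed, Ltbp2, higher at 20 weeks, against 1.5% of 9673 genes higher and 3.14% called in either direction. Its count was 29 at 20 weeks, 9 in replicate 1 and 20 in replicate 2, against 3 in the 2-week library, a 30.5-fold higher share of all UMIs with a counting interval of 9.46 to 157 (edgeR adjusted p = 0.000799). The 3 UMIs of the 2-week library carry this ratio, and the call ended with DESeq2 (adjusted p = 0.0692), with doublets kept (0.289) and with the members kept for clustering (0.16). Ltbp4 differed by 1.66 (SE 0.67, adjusted p = 0.228), with 1.90 in replicate 1 and 1.37 in replicate 2. Tgfb1 differed by 1.70 (SE 0.58, adjusted p = 0.0896, and 0.0406 with stricter cell filters), with 1.32 in replicate 1 and 1.78 in replicate 2. The median log2 difference was 0.69 over the 10 members and 0.03 over all genes tested. Synovial lining markers summed to 1427 and 1396 CPM in these cells at 20 weeks and 26.8 CPM at 2 weeks. Tenocyte markers summed to 402 and 136 CPM at 20 weeks and 94.5 CPM at 2 weeks. The part of either list in the result was not tested.

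In mural-like cells 4 members passed the filter and 0 were called, against 0.126% of 2385 genes by edgeR. At an unadjusted p below 0.05 there was 1, Ltbp4, with 2.53 (SE 1.13), and DESeq2 called 0. The mural-like clusters differed by library as given above, and Ltbp1 differed between them, so these values also compare different clusters. Clusters 0 and 8, unnamed clusters with at least 20 cells in every library, allow age to be compared within 1 cluster, and were added after the data had been seen. In cluster 0, led by Sfrp1 and Penk, edgeR called 0 of 7 members tested, against 2.02% of 3916 genes, with 1 at an unadjusted p below 0.05 and 0 by DESeq2. In cluster 8, led by Mmp3 and Lpl, edgeR called 0 of 8, against 1.87% of 4878 genes, with 0 at an unadjusted p below 0.05 and 0 by DESeq2. Ltbp4 differed by 0.91 in cluster 0 (1.09 and 0.72 in replicates 1 and 2) and by 1.34 in cluster 8 (1.16 and 1.47), neither of which passed.

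Over all cells, edgeR called 0 of the 10 members, against 0% of 13232 genes, with 2 members and 1043 genes at an unadjusted p below 0.05. The 2 members were Tgfb1, at 73.9 and 62.7 CPM at 20 weeks and 21.5 CPM at 2 weeks (log2 difference 1.72, SE 0.47, edgeR adjusted p = 0.537), and Ltbp4, at 516 and 898 CPM at 20 weeks and 208 CPM at 2 weeks (1.75, SE 0.63, adjusted p = 0.592). DESeq2 called 205 genes, of which 1 was a member, Ltbp4 (1.76, adjusted p = 0.0305). Cluster 7 held 33 and 275 cells of replicates 1 and 2 and 9 of the 2-week library. It gave 125 of the 922 Ltbp4 UMIs of replicate 1 and 2993 of the 4879 of replicate 2. For Tgfb1, tenocyte-like cells gave 105 of the 132 UMIs of replicate 1, and B-lineage-like cells gave 101 of the 341 of replicate 2. The Ltbp4 and Tgfb1 values over all cells thus also compare different mixes of cells, whose part was not tested. Ltbp2 stood at 48.7 and 13.8 CPM at 20 weeks and 6.88 CPM at 2 weeks (2.26, SE 0.98, adjusted p = 0.681), and without B-lineage-like and muscle fibre-like cells it passed (2.30, adjusted p = 0.033). Without the filter on low counts Tgfb1 (adjusted p = 0.0282) and Ltbp2 (0.00159) passed. Without replicate 1 the value of Ltbp2, with no test, was 0.83, and tenocyte-like cells, which gave 76 of that library's 87 Ltbp2 UMIs, were 40.1% of its cells, against 12.3% in replicate 2 and 14.2% at 2 weeks. The values of Ltbp4 lay above the 2-week library in both 20-week libraries in all cells, in the 3 main classes and in clusters 0 and 8, comparisons that share the 1 library at 2 weeks and, in part, the same cells.

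Whether the age difference itself varied between the classes was tested as an interaction over the 9 sums. EdgeR called 0 of the 10 members, against 0.0375% of 8003 genes, with 2 members at an unadjusted p below 0.05 and 0 by DESeq2. By edgeR's quasi-likelihood test the 2 were Ltbp2 (adjusted p = 0.346) and Tgfb2 (adjusted p = 0.659). No member's age difference was therefore shown to differ between the classes.

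**Figure D5:**
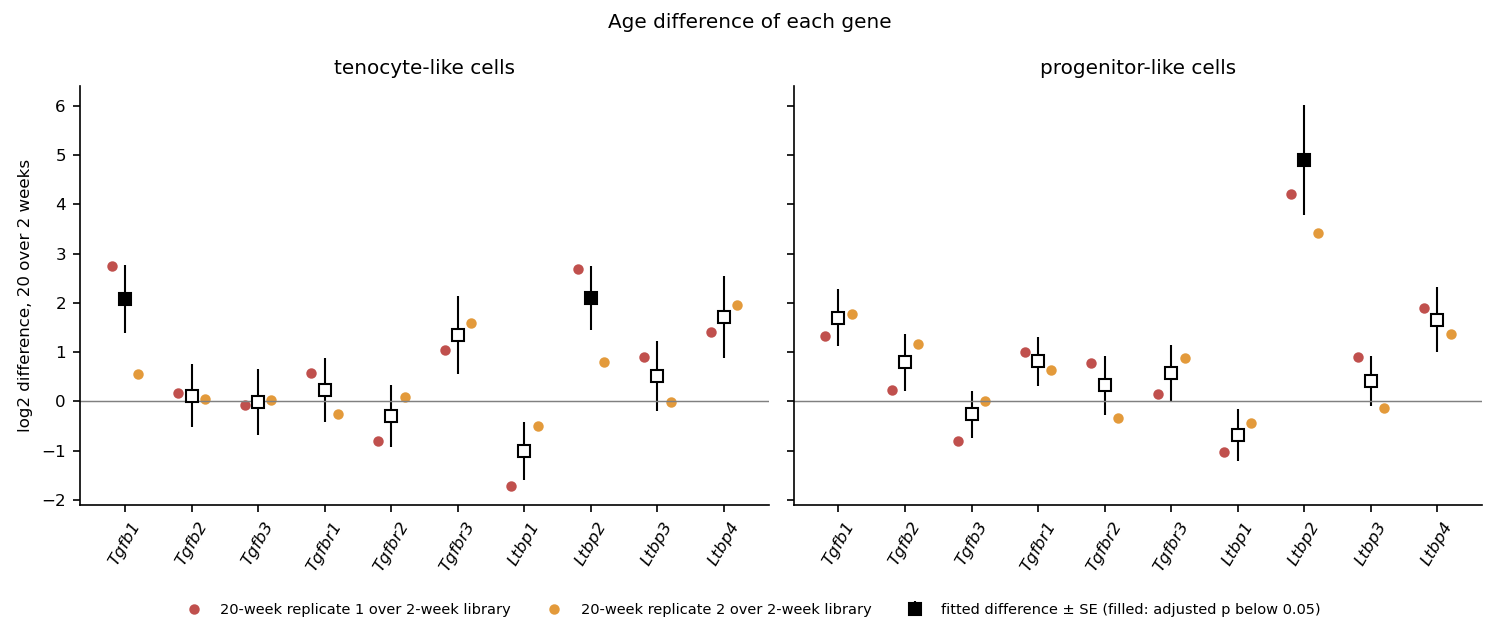
Log2 difference of 20 weeks over 2 weeks for the 10 genes in tenocyte-like and progenitor-like cells, with the fitted value as a square (filled where the adjusted p was below 0.05), its SE as bars and each 20-week replicate as a point. Ltbp4 lay above 0 in both replicates of both classes, Tgfb1 and Ltbp2 in tenocyte-like cells lay at 2.74 and 2.68 in replicate 1 but 0.56 and 0.80 in replicate 2, and Ltbp2 in progenitor-like cells rests on 3 UMIs at 2 weeks.

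The share of cells with a UMI was compared after thinning each cell to 2000 UMIs, since depth differed between libraries. In tenocyte-like cells Tgfb1 was seen in 22.4% and 4.95% of cells at 20 weeks and 3.89% at 2 weeks (30.5%, 12.9% and 13.9% before thinning, with 47, 23 and 29 shallower cells left out). In progenitor-like cells Ltbp4 was seen in 75.2% and 63.2% at 20 weeks and 40.7% at 2 weeks, against 1.52% in the B-lineage-like cells of replicate 2, whose median depth was 4530 UMIs. Ltbp4 in tenocyte-like cells stood at 35.2% and 40.6% at 20 weeks and 18.1% at 2 weeks. Tgfbr2 in progenitor-like cells stood at 57.1% and 29.9% at 20 weeks and 44.7% at 2 weeks, with the 20-week libraries on either side of the 2-week library.

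The promoters of the genes with an age call are shown for the letters of the core SMAD-binding motif, since Tgfb1 and Ltbp2 stood together in the tenocyte-like calls. Each line gives 200 bases 5' to 3', from 250 to 51 bases before the RefSeq start on GRCm38.p6, Tgfb1 at chr7:25686752-25686951 on the plus strand and Ltbp2 at chr12:84876542-84876741 on the minus strand. Capitals mark CAGAC or its reverse complement GTCTG.
Tgfb1: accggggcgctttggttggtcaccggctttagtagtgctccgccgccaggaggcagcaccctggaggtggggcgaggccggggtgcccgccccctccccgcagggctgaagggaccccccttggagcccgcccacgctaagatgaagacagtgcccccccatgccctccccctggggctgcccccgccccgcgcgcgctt
Ltbp2: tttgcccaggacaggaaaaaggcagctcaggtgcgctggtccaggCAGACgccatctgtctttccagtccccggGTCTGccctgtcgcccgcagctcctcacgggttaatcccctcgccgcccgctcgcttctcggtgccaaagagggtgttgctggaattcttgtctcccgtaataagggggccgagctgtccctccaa
The Tgfb1 window held 0 matches and was 74.0% G and C, and the Ltbp2 window held 2 and was 62.0% G and C. Of 32851 promoter windows of the same length, 35.8% held a match. The RefSeq table held an entry for 8 of the 10 members, and a match is a description of letters only.

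Around the members, genes of the same pathway were counted from lists covering 51 genes. In tenocyte-like cells 44 were tested by age, of which edgeR called 0 in the higher direction and 8 in the lower (background 2.82% and 2.45%), while the 2 called members were higher. The lower genes were 6 of 16 common TGF-beta targets (Col1a1, Col1a2, Postn, Tnc, Tagln and Acta2) and 2 of 10 tested genes of latent-complex storage and activation, Mmp14 and Fbn2. The other 10 targets were not called. Among them Pmepa1 (1.68 and 1.39) and Smad7 (1.52 and 0.11) lay higher in replicates 1 and 2. At an edgeR unadjusted p below 0.05, 0 targets were higher and 7 lower. Tagln and Acta2 are mural markers too, and the mural marker list summed to 180 and 156 CPM in these cells at 20 weeks and 643 CPM at 2 weeks; its part in the result was not tested. Col1a1, a chain of type I collagen, had 1535 and 2948 CPM at 20 weeks and 80345 CPM at 2 weeks (log2 difference -5.41, SE 0.86, adjusted p = 5.7e-08). Fbn2, a fibrillin made mainly in developing tissue, gave 2 UMIs in the 20-week libraries together against 680 in the 2-week library, 70.5-fold lower with a counting interval of 19.5 to 584. Smad2, Smad3 and the other SMADs and their regulators gave 0 calls among 10 tested.

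In progenitor-like cells 46 of the 51 were tested, of which edgeR called 1 in the higher direction and 5 in the lower (background 1.5% and 1.64%). The lower genes were Col1a1, Col1a2, Postn, Thbs1 and Fbn2, of which Thbs1 encodes thrombospondin 1, an activator of latent TGF-beta. Among the 15 common targets tested, 5 were higher and 5 lower at an edgeR unadjusted p below 0.05. For Fbn2 the 20-week libraries held 0 UMIs and the 2-week library 202, at least 21.3-fold lower with 3 UMIs over the group in place of 0. Postn, a matrix protein and target of the pathway, had 129 and 22.3 CPM in progenitor-like cells at 20 weeks and 2266 CPM at 2 weeks (log2 difference -4.93). In tenocyte-like cells it was also lower (-3.09), by uneven amounts, with 1.36 CPM in replicate 1, 222 CPM in replicate 2 and 728 CPM at 2 weeks. In mural-like cells it had 150 and 398 CPM at 20 weeks and 143 CPM at 2 weeks (0.63, SE 1.16), which did not pass. The higher gene, Scx, had 62.2 CPM in replicate 1, 1.44 CPM in replicate 2 and 2.63 CPM at 2 weeks, so 1 library carried it. Scx is a tenocyte marker too. The tenocyte marker list summed to 402 and 136 CPM in progenitor-like cells at 20 weeks and 94.5 CPM at 2 weeks, and its part was not tested.

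The pattern of each member over the 16 sums of class and library was set beside those of 2917 other genes by Pearson's r of log2(CPM + 10), as a description on sums that share libraries. Tgfb1 was most like Smad7 (r = 0.83), the inhibitory SMAD that the pathway itself induces. Tgfbr2 was most like Pi16 (r = 0.87), which is a marker used to name the progenitor-like cells. Tgfb3 was most like Thbs1 (0.89), Tgfb2 like Pmp22 (0.88) and Tgfbr1 like Atp6ap2 (0.89). Tgfbr3 was most like Bicc1 (0.89), Ltbp1 like Lamc1 (0.84), Ltbp2 like Fxyd5 (0.86), Ltbp3 like Pam (0.95) and Ltbp4 like Serping1 (0.89).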

How the data were processed

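Single-cell RNA-seq of sorted mouse patellar tendon cells gave 3 libraries. The authors deposited a UMI count per gene and barcode for each; Cell Ranger 6.1.2 and mm10 are named per the submitters' processing notes, and strand and intron settings are not given in the sources used here. The members, lists and comparisons were chosen with earlier results of these data known.

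Barcodes were kept from 500 detected genes and 1000 UMIs upward, with a mitochondrial share of no more than 10%: 609 and 1015 at 20 weeks and 4964 at 2 weeks. Doublet scores were computed per library; the automatic threshold failed, so the top-scoring barcodes at the expected rate (3 and 9 at 20 weeks, 225 at 2 weeks) were removed. Cells were clustered with scanpy 1.11.5 (Leiden, resolution 1.0) without the members and pathway genes, and clusters were named from fixed markers. The planned resolution was 0.5; 1.0 took its place after cluster sizes and leading genes had been seen at both. About 4 combinations of doublet, naming and resolution settings were looked at, none by a member's value.

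UMIs were summed per library and class, with at least 20 cells, and tested with edgeR 4.0.16 (quasi-likelihood, TMM, filterByExpr, Benjamini-Hochberg over all genes tested; library as a block between classes), checked on simulated counts. DESeq2 1.42.0 was an alternative. Intervals are exact 95% Poisson or Clopper-Pearson intervals and cover counting error only. Named genes are the 10 members, pathway genes with an adjusted p below 0.05 by age, and, of the 2 genes most like each member, the first. Other alternatives were stricter cell filters, doublets kept, members kept for clustering, no low-count filter, no library block, sums thinned to the smallest and each library left out.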

Additional observations from a re-analysis of the deposited data

Results flagged for a closer look

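In 4 pairs of cell groups, a member's age difference had opposite signs, each shared by both 20-week libraries of its group. No interaction test joined these groups, and in each of these pairs the difference was not tested. Tgfb2 had a log2 age difference of -1.47 in mural-like cells (-0.97 and -2.17 in replicates 1 and 2, from 5 and 2 UMIs), against 0.85 in cluster 0 (0.86 and 0.83). Set against cluster 8, the same -1.47 of Tgfb2 stood beside 0.98 (0.88 and 1.01). Tgfb2 also lay on opposite sides in mural-like cells and in progenitor-like cells (0.24 and 1.16) and tenocyte-like cells (0.18 and 0.05), and there the interaction was tested with edgeR: the age differences differed by -2.32 (adjusted p = 0.597) and -1.66 (adjusted p = 0.725), and neither passed. Tgfbr1 had -0.65 in cluster 0 (-0.11 and -0.97) and 0.81 in progenitor-like cells (1.00 and 0.63). Tgfbr2 had -0.14 in cluster 0 (-0.20 and -0.09) and 0.45 in cluster 8 (0.40 and 0.47). Cluster 0 held only 34 and 46 cells in replicates 1 and 2. Its -0.11 for Tgfbr1 and its -0.20 and -0.09 for Tgfbr2 lie near 0, so their signs are weak. None of these age differences passed edgeR's adjusted threshold on its own, and all share the 1 library at 2 weeks.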

How the results depend on the processing

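The count of members called by age in all cells was 0, and became 2 without the low-count filter, 1 with DESeq2 and 1 without B-lineage-like and muscle fibre-like cells. In tenocyte-like cells it was 2, and became 0 without the filter, 0 with DESeq2, 0 with sums thinned to the smallest, 1 with stricter cell filters and 1 with the members kept for clustering. In progenitor-like cells it was 1, and became 0 with DESeq2, thinned sums, doublets kept or members kept for clustering, and 2 with stricter filters. Between classes, the count for mural-like against tenocyte-like cells was 5 (6 without the filter, 2 thinned, 3 with no library block, 2 to 5 with a library left out), for mural-like against progenitor-like 3 (5 without the filter, 4 with RLE size factors, 2 with no library block, 3 to 4 with a library left out) and for tenocyte-like against progenitor-like 6 (8 without the filter, 1 thinned, 2 with no library block, 2 to 6 with a library left out). With thinned sums only 4 members passed the filter between classes, and Ltbp2 did not pass it in progenitor-like cells by age. Members that did pass it also lost calls with thinned sums. These were Ltbp3 and Ltbp4 between classes, and Tgfb1 and Ltbp2 in tenocyte-like cells by age. For no setting was the cause of a changed count tested. No called difference changed sign in the alternatives run. Genes called over the alternatives ranged from 0 to 716 in all cells, 118 to 463 in tenocyte-like, 0 to 315 in progenitor-like and 0 to 7 in mural-like cells. The resolution of 0.5, stricter filters and doublets kept left under 20 cells in some class sums, so those fits were not run. At resolution 0.5 and with doublets kept, the cluster with most 20-week tenocyte-like cells (228 and 112, and 230 and 38, cells of replicates 1 and 2) lost that name. No paired analysis by age was made, because no link between a 2-week and a 20-week library is given. Leaving out a library leaves the age tests with no residual degrees of freedom, so these are values only. Depth limits mural-like cells most, with 1 to 19 UMIs of each detected member in a 20-week library.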
